A study of Mus musculus with 2 samples.

Results

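The 7 genes described here, Scgb1a1, Scgb3a1, Sftpc, Sftpa1, Sftpb, Sftpd and Wfdc2, encode proteins that the lining of the airways and air sacs secretes, and all 7 were found by symbol among the 33696 genes of the deposited count matrices. They were followed in 2 libraries of single lung cells, 1 from a mouse labelled GFI1 KO and 1 from a mouse labelled WT, and no animal in either group received a treatment named in the labels. The mice were adults of 5 to 8 weeks on the C57BL6/J background, and the knockout was not restricted to a tissue by a Cre. Lungs were perfused, cut up, digested with collagenase IV and DNase I, and sorted for live cells without selection for a cell type. Each library was made with the 10x Genomics 3′ chemistry, which counts unique molecular identifiers (UMIs), 1 per captured RNA molecule, near the 3′ end of a transcript. The study's methods name 2 samples per genotype, and the other 2 libraries were not analysed here. With 1 library per genotype there is no spread between mice and no test. Every interval below is a 95% interval for counting error only, and a difference between genotypes cannot be told apart from a difference between 2 mice, 2 dissociations or 2 libraries.

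Secretoglobins such as Scgb1a1 and Scgb3a1 are small proteins that club and related secretory cells release into the airway lumen, and Scgb1a1 is among the most abundant transcripts of the lung. Sftpb and Sftpc encode the hydrophobic surfactant proteins that spread the lipid film of the alveoli, while Sftpa1 and Sftpd encode collectins, which bind sugars on microbes. Alveolar type 2 cells make all 4 surfactant proteins, and airway secretory cells make Sftpa1, Sftpb and Sftpd but not Sftpc. Wfdc2 encodes a small secreted protein with whey acidic protein domains. Digestion of a lung breaks some epithelial cells, and in droplet data their RNA, called free RNA, can be captured with any cell. Lymphocytes do not make these proteins, so UMIs of the 7 genes in T, B and NK cells serve as a gauge of free RNA within a library. The matrices hold called cells, and droplets without a cell were not analysed here.

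Promoter sequence of 4 of the 7 genes (Scgb3a1, Sftpa1, Sftpb and Wfdc2) could be matched by symbol to a RefSeq table of build GRCm38.p6. The 250 bases before the start of 3 of them are shown because NKX2-1, a transcription factor of lung epithelium whose gene is among those counted below, is known to bind sites with the core CTCAAG. Capitals mark CTCAAG or, for a match on the other strand, CTTGAG.
Scgb3a1, chr11:49663345-49663594, plus strand: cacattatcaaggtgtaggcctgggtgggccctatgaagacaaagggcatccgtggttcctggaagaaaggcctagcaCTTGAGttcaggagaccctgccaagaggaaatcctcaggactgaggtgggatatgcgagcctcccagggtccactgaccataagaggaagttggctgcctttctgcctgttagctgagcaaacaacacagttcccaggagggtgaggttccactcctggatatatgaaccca
Sftpa1, chr14:41131538-41131787, plus strand: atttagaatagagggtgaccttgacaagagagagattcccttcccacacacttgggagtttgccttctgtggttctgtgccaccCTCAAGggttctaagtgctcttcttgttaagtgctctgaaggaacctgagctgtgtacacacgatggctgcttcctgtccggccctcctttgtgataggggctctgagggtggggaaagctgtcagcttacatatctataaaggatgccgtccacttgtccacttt
Sftpb, chr6:72304360-72304609, plus strand: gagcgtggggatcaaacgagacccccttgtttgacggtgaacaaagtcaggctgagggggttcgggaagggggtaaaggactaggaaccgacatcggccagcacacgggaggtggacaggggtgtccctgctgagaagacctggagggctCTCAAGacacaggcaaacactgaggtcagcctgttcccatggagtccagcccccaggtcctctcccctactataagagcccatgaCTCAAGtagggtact
Sftpb held CTCAAG at 100 and at 15 bases before its start, Sftpa1 held it at 166 bases and Scgb3a1 at 172 bases on the other strand, and the window of Wfdc2 held none. The motif, read on both strands, was present in 13.3% of the 32851 promoter windows of the same length. TATAA, searched likewise on both strands and not overlapping CTCAAG in these windows, began 30 bases before the start of Sftpa1 and of Sftpb and was present in 22.8% of all windows. These matches are letters in a window and were not tested as sites.

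The library labelled GFI1 KO, called KO-labelled below, held 10700 called cells and 116825535 UMIs of genes, and the WT-labelled one held 19515 cells and 162599284 UMIs. After the study's filters 10495 and 19342 cells remained, with medians of 11076 and 6217 UMIs per cell. Gfi1 (ENSMUSG00000029275), the gene knocked out, had 340 UMIs in the KO-labelled library, 3.60 CPM (UMIs of a gene per 1000000 UMIs; 3.23 to 4.0), and 470 UMIs in the WT-labelled library, 3.47 CPM (3.16 to 3.8). Gfi1 RNA was thus not lower in the KO-labelled library. A 3′ count outside a deleted part cannot check a knockout allele, so each library is called by its label and no direction is drawn from Gfi1. Of all cell barcodes, 74 occurred in both libraries. Cell classes, named with the ending -like from marker genes that did not include the 7 members, differed in size between the libraries. There were 1883 lymphocytes (T-like, B-like and NK-like) in the KO-labelled library and 7178 in the WT-labelled library, 9 and 1516 neutrophil-like cells, 3477 and 427 monocyte-like cells, and 107 and 2124 endothelial-like cells. The larger monocyte-like cluster, of 3092 and 67 cells, also had 4 of 7 neutrophil markers raised. With each library clustered on its own, 510 and 1714 cells were named neutrophil-like.

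Few cells of either library were epithelial, with a lower share in the KO-labelled library when classes came from clusters. There were 33 epithelial-like cells of 10495 in the KO-labelled library (0.314%, 0.217 to 0.441) and 117 of 19342 in the WT-labelled library (0.605%, 0.501 to 0.725), a difference of -0.290 percentage points (-0.445 to -0.126). With cells classed by defining markers instead of clusters, the difference was -0.0563 points and its interval, -0.145 to 0.0442, included 0. Most of the difference lay in airway secretory-like cells, of which there were 11 and 67, a difference of -0.242 points (-0.349 to -0.128). Alveolar type 2-like cells numbered 5 and 10, and ciliated-like cells, which carry the beating cilia of the airways, numbered 3 and 14. The interval of the difference in alveolar type 2-like share, -0.00406 points, ran from -0.0580 to 0.0649. A sub-cluster of 18 and 8 cells had all 8 alveolar type 2 markers and 5 of 10 epithelial markers raised. It was led by other genes, such as Jdp2 and Clec12a, and had a median of 2199 UMIs. It was left unnamed for few UMIs and is in none of these counts, so the alveolar type 2-like share depends on that rule. A remaining 14 and 26 epithelial-like cells, led by Lgals2, Gpx2, Krt8 and Olfm4, had medians of 461 and 460.5 UMIs and are counted only in the epithelial-like total. They had 9 of 10 epithelial markers raised, but none of the alveolar type 2, airway secretory or ciliated markers and 2 of 8 alveolar type 1 markers. Without these cells, a setting added after seeing the data, the difference in epithelial-like share was -0.289 points (-0.418 to -0.153). No sub-cluster was named alveolar type 1-like. Of the 8 markers of these cells, 6 were raised in the ciliated-like sub-cluster, where all 8 ciliated markers were raised too, and 4 in the alveolar type 2-like sub-cluster and in 1 of the airway secretory-like ones. The tag of the antibody against CD45, the surface protein of leukocytes, had medians of 4 and 5 UMIs in epithelial-like cells against 779 and 583 in lymphocytes.

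**Figure D1:**
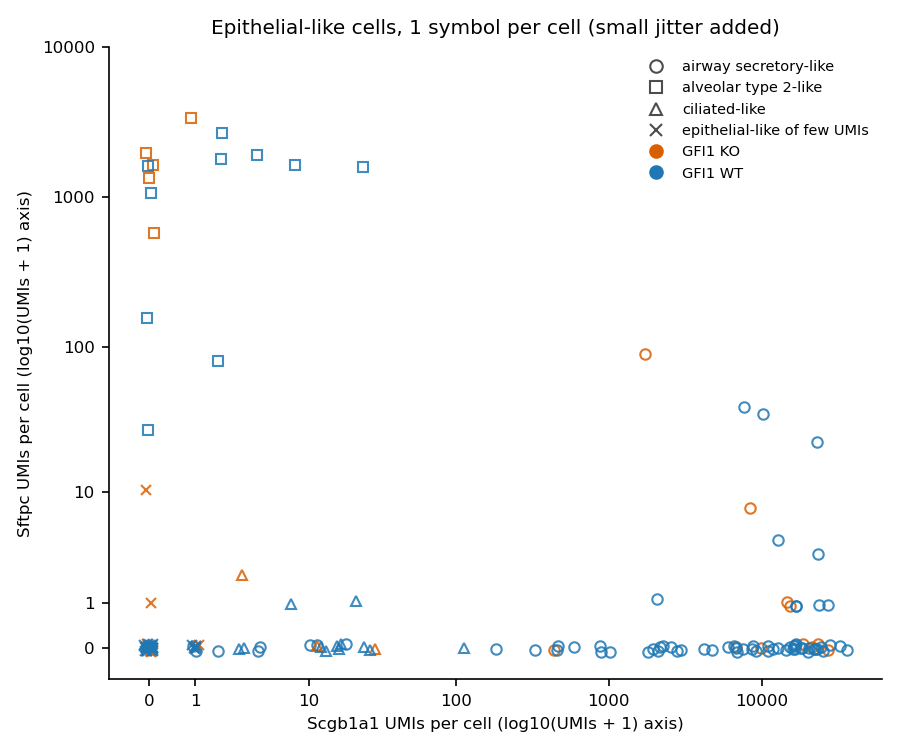
Sftpc UMIs (vertical axis) against Scgb1a1 UMIs (horizontal axis) per cell, both on log10(UMIs + 1) axes, in epithelial-like cells of the libraries labelled GFI1 KO and WT; each symbol is 1 cell, its shape gives the kind of cell and a small jitter was added. Alveolar type 2-like cells lie along the Sftpc axis, up to 3317 UMIs in the KO-labelled library and 2556 in the WT-labelled library, and airway secretory-like cells along the Scgb1a1 axis, up to 26316 and 33702 UMIs.

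Scgb1a1 (ENSMUSG00000024653) made up more than any other of the 7 genes of the RNA of airway secretory-like cells in both libraries. It gave 147470 UMIs in 11 cells in the KO-labelled library, 57.9% of all UMIs kept in them, and 700402 UMIs in 67 cells in the WT-labelled library, 47.6%. The ratio of these levels, GFI1 KO over WT, was 1.22 (1.21 to 1.22). Single cells ranged from 463 to 26316 UMIs with a median of 14715 in the KO-labelled library, and from 1 to 33702 with a median of 8226 in the WT-labelled library. Several WT-labelled cells with this name held few Scgb1a1 UMIs, such as 18 of 13193, 2 of 14704 and 1 of 8446. No KO-labelled cell did so. Such cells count among the 67 in every airway secretory-like share, level and median given here, and their kind was not tested. The ranges overlapped over almost their whole length, and cells of one library differed among themselves far more than the libraries did. Without the cell of most Scgb1a1 UMIs in each library the levels were 558154 and 469262 CPM. At least 1000 UMIs were seen in 10 of 11 and in 51 of 67 cells. Of all Scgb1a1 UMIs, 98.3% in the KO-labelled library and 97.0% in the WT-labelled library lay in airway secretory-like cells.

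Scgb3a1 (ENSMUSG00000064057) divided the airway secretory-like cells, with no UMI in many and very many in others. It was at 45093 CPM in the KO-labelled library and 36697 CPM in the WT-labelled library, a ratio of 1.23 (1.2 to 1.25). No UMI was seen in 4 of 11 and in 29 of 67 cells, while the highest cells held 4788 and 6688 UMIs, with medians of 450 and 107. The sub-cluster of 5 and 27 cells led by Bpifa1, Scgb3a2 and Reg3g, which encode secreted host defence proteins and a further secretoglobin, held most of it, at 65003 and 59341 CPM. A sub-cluster of 4 and 17 cells had the highest Scgb1a1 level by CPM, 805397 and 720965 CPM. Per cell it had the lowest medians, 7384.5 and 2440 Scgb1a1 UMIs, against 17987 and 10905 in the sub-cluster of 5 and 27 cells. Median totals were 8979.5 and 8446 UMIs in the former and 35909 and 30310 in the latter. The ratio of Scgb3a1 to Scgb1a1 UMIs in airway secretory-like cells was nearly the same in both libraries, 7.79 and 7.72 per 100.

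Sftpc (ENSMUSG00000022097), a gene whose product is made by alveolar type 2 cells, took a larger part of the RNA of these cells in the KO-labelled library. It stood at 205711 CPM (201418 to 210071) in 5 cells there and at 115406 CPM in 10 cells in the WT-labelled library, a ratio of 1.78. The 5 cells held 610 to 3317 UMIs with a median of 1632, and the 10 cells held 26 to 2556 with a median of 1597. The medians per cell were thus close, and the median total of a cell was 8764 UMIs in the KO-labelled library against 11940 in the WT-labelled library. In airway secretory-like cells Sftpc was at 396 and 70.6 CPM, but 91 of the 101 UMIs in the KO-labelled library lay in 1 cell. Without the cell of most Sftpc UMIs in each library these levels were 40.9 and 46.0 CPM.

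The other surfactant genes were seen in both kinds of secretory cell, and their CPM ratios ran in opposite directions there. Sftpa1 (ENSMUSG00000021789) was at 33924 CPM in alveolar type 2-like cells in the KO-labelled library and 17719 in the WT-labelled library, a ratio of 1.91, and at 2748 and 3129 CPM in airway secretory-like cells, a ratio of 0.878. Its single alveolar type 2-like cells held 88 to 465 UMIs (median 332) and 3 to 450 (median 149.5). Sftpb (ENSMUSG00000056370), whose promoter held the motif at 2 places, was at 10578 and 8366 CPM in alveolar type 2-like cells, a ratio of 1.26, and at 294 and 470 CPM in airway secretory-like cells, a ratio of 0.627. Its alveolar type 2-like cells held 40 to 124 UMIs (median 109) and 14 to 211 (median 96). For Sftpd (ENSMUSG00000021795) the levels were 5772 and 3279 CPM in alveolar type 2-like cells, a ratio of 1.76, and 400 and 613 CPM in airway secretory-like cells, a ratio of 0.653. Single alveolar type 2-like cells held 9 to 84 Sftpd UMIs (median 47) and 3 to 98 (median 37). In every one of these cases the 5 cells and the 10 cells overlapped in UMIs per cell. Per airway secretory-like cell the KO-labelled medians were higher: 27 and 14 UMIs for Sftpa1, 3 and 0 for Sftpb, 7 and 5 for Sftpd. Sftpb was nearly equal in the sub-clusters of 5 and 27 (88.4 and 85.4 CPM) and of 4 and 17 cells (670 and 665). It was lower in the KO-labelled library in that of 2 and 23 cells (735 and 1090). Sftpd was lower in each of them, and Sftpa1 was higher only in the first. The part of the sub-cluster mix was not tested.

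The place where a surfactant gene had most of its UMIs therefore differed between the libraries. Of all Sftpa1 UMIs, 61.0% lay in alveolar type 2-like cells and 29.6% in airway secretory-like cells in the KO-labelled library, against 25.8% and 62.5% in the WT-labelled library. Sftpd divided likewise, with 61.6% and 25.6% in the KO-labelled library and 24.0% and 61.6% in the WT-labelled library. Sftpb had 71.3% and 47.0% in alveolar type 2-like cells. The number of airway secretory-like cells, 11 against 67, enters all of these shares, and its part in them was not tested. Of Sftpc UMIs, 12.0% in the KO-labelled library and 22.9% in the WT-labelled library lay outside the epithelial-like class. Most of these were in 1 unnamed cell of each library, with 914 and 2002 Sftpc UMIs.

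Wfdc2 (ENSMUSG00000017723) was the member most evenly spread over the epithelium. In airway secretory-like cells it was at 7200 and 8240 CPM, a ratio of 0.874, with 6 to 471 UMIs per cell (median 129) in the KO-labelled library and 0 to 1043 (median 90) in the WT-labelled library. Alveolar type 2-like cells had 3369 and 1789 CPM, a ratio of 1.88, and ciliated-like cells had 2901 and 2441 CPM, a ratio of 1.19. Airway secretory-like cells held 84.8% and 92.8% of its UMIs.

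Over all epithelial-like cells, 1 of the 7 members (Sftpc, ratio 3.58, 3.49 to 3.68) was at least 2-fold higher in the KO-labelled library and none was at most 0.5 of the WT level. Of the 6910 genes with at least 30 UMIs in this class, 2.84% reached the first limit and 12.6% the second. The median log2 ratio of the members was 0.51 against -0.07 for all genes compared. Since the alveolar type 2-like cells were 5 of 33 and 10 of 117, the total reflects different mixtures of cells. Within airway secretory-like cells alone, 1 member (Sftpc, through the single cell named above) was at least 2-fold higher and none at most 0.5, with 1.24% and 26.1% of 4910 genes past these limits. The members had a median log2 ratio of -0.19 there, against -0.39 for all genes compared.

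Related genes of alveolar type 2 cells and of airway secretory cells were compared in the epithelial-like total as 2 lists. Of 20 genes for surfactant and lamellar bodies, the storage organelles of surfactant, 19 were measured; 10 were at least 2-fold higher and none at most 0.5, with a median log2 ratio of 1.34. Ranked by the interval bound nearer to 1, Sftpc and Scd1, which desaturates fatty acids, came first in this list, both at a ratio of 3.58. No gene of it lay below its WT level with an interval clear of 1. The intervals of Muc1, a membrane mucin (1.17, 0.935 to 1.44), and of Ctsh, a protease that cleaves pro-surfactant proteins (1.24, 0.968 to 1.57), included 1. Of 22 airway secretory products none was at least 2-fold higher and 6 were at most 0.5 (median log2 ratio -0.32), while 5, Scgb1a1, Scgb3a1, Cbr2, Pon1 and Gsta3, had ratios from 1.07 to 1.37 with intervals above 1. Ltf, the iron-binding lactoferrin, was at 0.0842 of its WT level (0.0585 to 0.118), with UMIs in 6 and 39 cells, and Bpifa1 was at 0.287, with UMIs in 6 and 34 cells. By the same ranking the first of that list were Scgb1a1 and Scgb3a1, at 1.07 and 1.08.

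Genes that mark the epithelium without being secreted had medians near that of all genes. Of 14 transcription factors of lung epithelium 13 were measured, 1 was at least 2-fold higher and none at most 0.5 (median log2 ratio 0.13). Etv5, a factor of alveolar type 2 cells, had a ratio of 2.38, Nkx2-1 1.53 (1.06 to 2.17), Sox9 1.04 and Sox2, a factor of the airways, 0.917, the last pair with intervals that included 1. Of 12 genes of junctions and keratins 11 were measured, with 1 at least 2-fold higher and 1 at most 0.5 (median log2 ratio -0.14). Cldn18, a claudin of alveolar junctions, stood at 2.74, Epcam at 1.45, Krt19 at 0.636 and Krt7 at 0.477. Within airway secretory-like cells alone the counts were 1 higher and 1 lower of 13 surfactant genes measured, 0 and 4 of 21 airway products, 0 and 1 of 11 transcription factors, and 0 and 3 of 10 structural genes. Their median log2 ratios were -0.39, -0.21, -0.26 and -0.43. The surfactant list was thus higher in the epithelial-like total and not in airway secretory-like cells by themselves.

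Outside the epithelium the order of the libraries turned round. Scgb1a1 was found in every class, at a far lower level than in airway secretory-like cells, and was higher in the WT-labelled library in each class that had at least 50 cells in both libraries. In lymphocytes it was at 32.1 CPM (28.1 to 36.5; 235 UMIs, 0.125 per cell) in the KO-labelled library and 198 CPM (193 to 203; 5455 UMIs, 0.760 per cell) in the WT-labelled library, which is 6.16-fold higher (5.41 to 7.05). T-like cells had 29.3 and 182 CPM, B-like cells 40.9 and 227, and NK-like cells 17.6 and 184. The WT-labelled level was thus the higher one in all 3 lymphocyte classes.

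The same held in myeloid cells. Summed over all their classes they had 22.2 and 139 CPM of Scgb1a1, 6.27-fold higher in the WT-labelled library (5.93 to 6.63). Monocyte-like cells had 15.1 and 151 CPM (9.99-fold) and alveolar macrophage-like cells, which take up material from the airspace, 28.8 and 124.5 CPM (4.32-fold). Depth differed in the monocyte-like cells, with median totals of 9566 and 5272 UMIs, and per cell they had 0.147 and 0.859 Scgb1a1 UMIs. Interstitial macrophage-like cells had 24.9 and 150 CPM. Dendritic-like cells differed least, with 85.2 and 146 CPM (1.72-fold), and 21 of their 64 UMIs in the KO-labelled library were in 1 cell. Endothelial-like cells had 53.4 and 241 CPM, 4.51-fold higher in the WT-labelled library (2.94 to 7.29), or 46.2 and 217 CPM without the cell of most Scgb1a1 UMIs in each library.

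**Figure D2:**
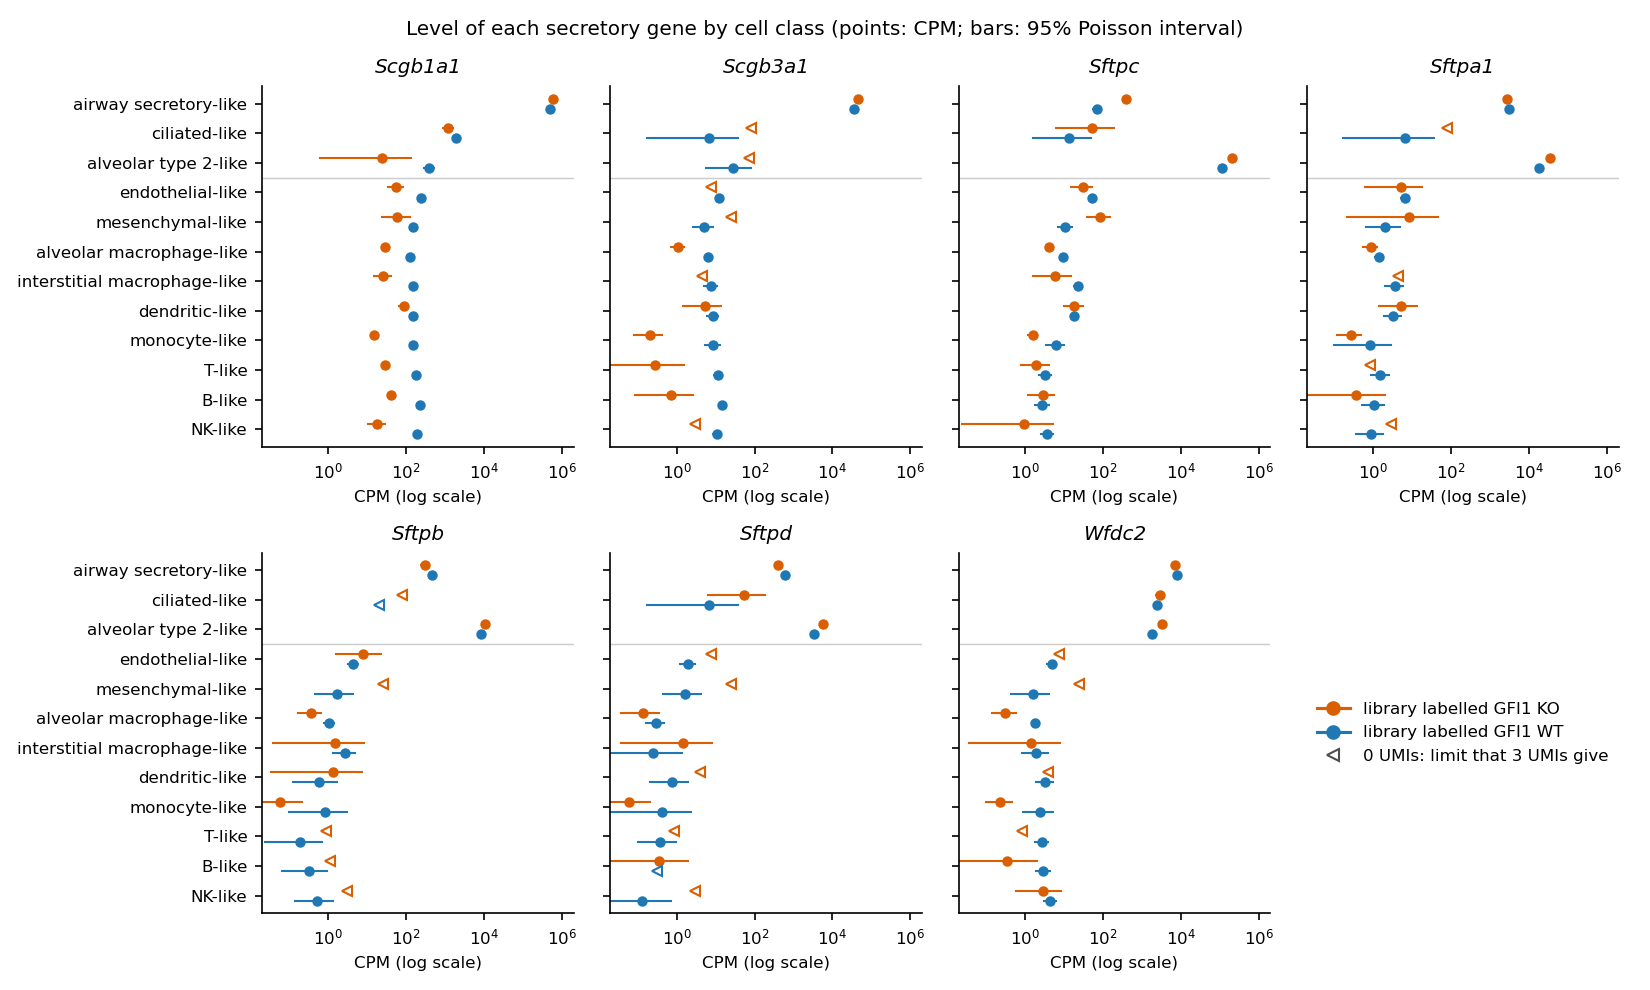
Level of each of the 7 genes in CPM (log axis) in 12 cell classes of the libraries labelled GFI1 KO and WT; bars are exact Poisson 95% intervals and open triangles mark the limit that 3 UMIs give where none was seen. In T-like cells Scgb1a1 was at 29.3 CPM in the KO-labelled library and 182 CPM in the WT-labelled library, against 578902 and 475611 CPM in airway secretory-like cells.

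Among the classes of 1 library, levels of Scgb1a1 were much alike but not equal. In the WT-labelled library 11 classes of at least 50 cells outside the epithelium ran from 124.5 CPM in alveolar macrophage-like cells to 265 CPM in neutrophil-like cells. These classes had median totals of 11942 and 2864.5 UMIs, and per cell their order turned round. Alveolar macrophage-like cells held 2.03 times (1.96 to 2.10) the Scgb1a1 UMIs per cell of lymphocytes, and neutrophil-like cells 1.16 times (1.09 to 1.23). By CPM, neutrophil-like cells exceeded the endothelial-like class beyond counting error and B-like cells the NK-like class. Endothelial-like cells exceeded B-like cells, 241 against 227 CPM, only through the cell of 262 Scgb1a1 UMIs, without which they were at 217 CPM (208 to 226) and the order turned round. The NK-like, T-like, innate lymphoid-like, monocyte-like, interstitial macrophage-like, mesenchymal-like and dendritic-like classes could not be ordered from one neighbour to the next. In the KO-labelled library 8 classes ran from 15.1 CPM in monocyte-like cells to 85.2 CPM in dendritic-like cells. By CPM, B-like over T-like was the only neighbouring pair that differed beyond counting error. These classes had median totals of 2921 and 4257 UMIs, and per cell their order turned round, with 0.127 and 0.134 Scgb1a1 UMIs. Scgb1a1 UMIs were spread more unevenly than counting error gives, with a variance over mean of 1.93 in these B-like and 2.32 in these T-like cells. The intervals do not include that unevenness, so this order is uncertain. Over whole libraries Scgb1a1 was at 1588 and 5325 CPM, 3.35-fold higher in the WT-labelled library. The level in lymphocytes was therefore 2.02% of the library's level in the KO-labelled library and 3.71% in the WT-labelled library.

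At matched depth the difference stayed. Lymphocytes had median totals of 3407 and 3547.5 UMIs, so their depth differed little. Within bins of total UMIs, from 500 to 2000, 2000 to 4000, 4000 to 8000 and above 8000, Scgb1a1 UMIs per lymphocyte in the WT-labelled library were 6.06, 5.30, 7.47 and 7.40 times those in the KO-labelled library. In the same bins myeloid cells gave 4.72, 7.38, 6.13 and 6.42. The share of lymphocytes with a Scgb1a1 UMI was 8.60% (7.38 to 9.96) in the KO-labelled library and 45.5% (44.3 to 46.6) in the WT-labelled library. With each cell thinned to 1500 UMIs, which left out 63 and 138 lymphocytes, the shares were 4.56% and 24.5%, a difference of -19.9 points. No lymphocyte in the KO-labelled library held more than 8 Scgb1a1 UMIs.

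**Figure D3:**
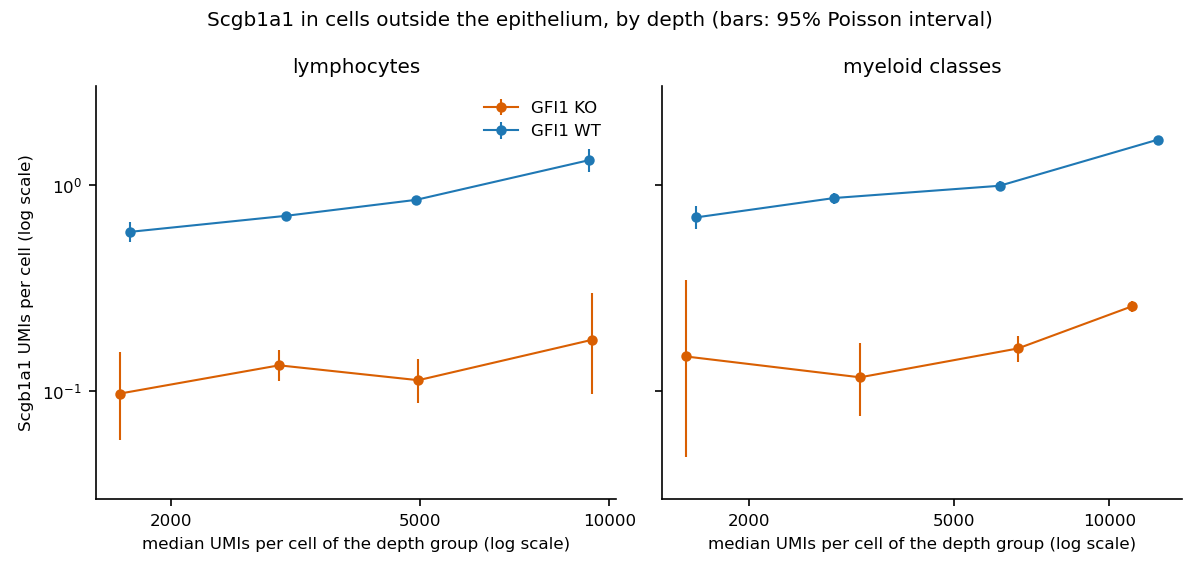
Mean Scgb1a1 UMIs per cell (log axis) against the median total of UMIs per cell of 4 depth groups (log axis) in lymphocytes and in myeloid classes of the libraries labelled GFI1 KO and WT; bars are exact Poisson 95% intervals. In lymphocytes of 2000 to 4000 UMIs the WT-labelled library had 5.30 times as many Scgb1a1 UMIs per cell, and the libraries stayed apart in every bin of both groups.

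The other airway genes followed Scgb1a1 in direction. Scgb3a1 gave 3 UMIs in lymphocytes in the KO-labelled library (0.410 CPM) and 335 in the WT-labelled library (12.1 CPM), a ratio of 29.6 (10.1 to 144), and 0.655 and 7.24 CPM in myeloid cells, a ratio of 11.1 (8.06 to 15.5). Wfdc2 gave 4 and 91 UMIs in lymphocytes (0.546 and 3.30 CPM), 6.04-fold higher in the WT-labelled library (2.28 to 22.6). With lymphocytes taken from defining markers instead of clusters, the Wfdc2 log2 ratio, KO-labelled over WT-labelled, was -0.053 (-2.14 to 1.67), an interval that includes 0. The surfactant genes were sparse in lymphocytes. Sftpa1 gave 1 and 33 UMIs there, Sftpd 1 and 5, and Sftpb 0 and 9, where the 0 allows a level of up to 0.410 CPM in the KO-labelled library and 9 UMIs are 0.326 CPM. Sftpc gave 16 UMIs (2.18 CPM) and 90 UMIs (3.26 CPM), a ratio of 1.49 whose interval, 0.871 to 2.72, includes 1.

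Of the 5 members with at least 30 UMIs in lymphocytes, 4 were at most 0.5 of the WT level in the KO-labelled library and none was at least 2-fold higher. Over the 12366 genes compared in lymphocytes, 3.73% were at most 0.5 and 4.23% at least 2-fold higher. The median log2 ratio was -2.57 for these 5 members and 0.01 for all genes. Sftpb and Sftpd had too few UMIs there, and members such as Sftpa1 reached the limit of 30 UMIs through the WT-labelled library, so this count is a description. Summed over the 7 genes, lymphocytes held 35.5 CPM in the KO-labelled library and 218 CPM in the WT-labelled library, a log2 ratio of -2.62.

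**Figure D4:**
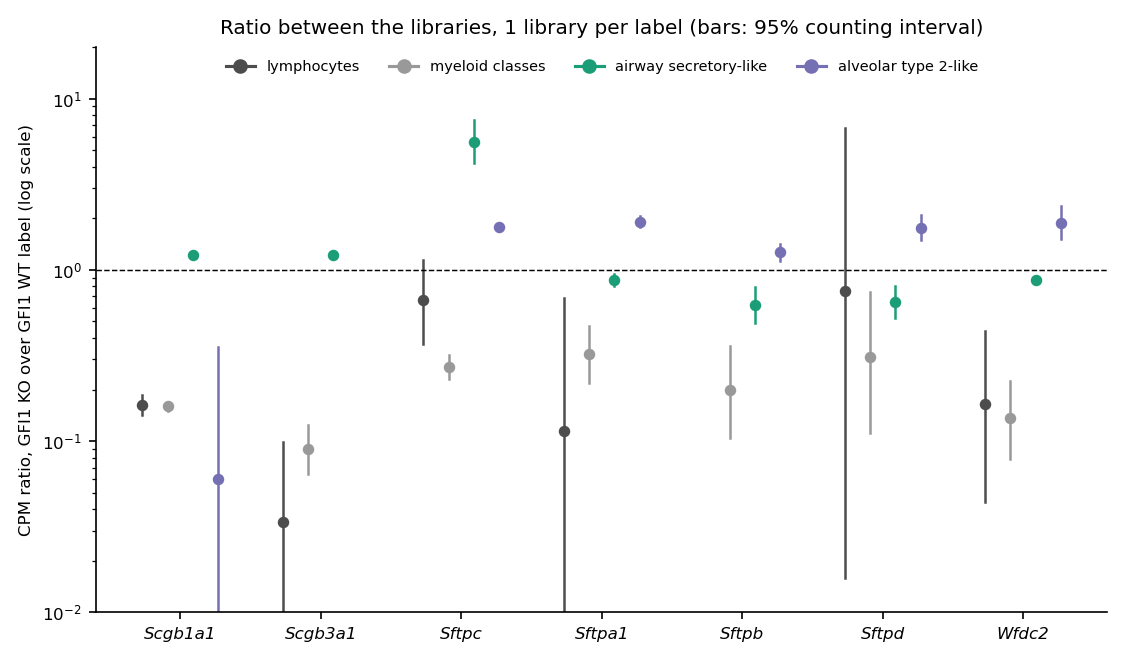
Ratio of the CPM level in the KO-labelled library to that in the WT-labelled library (log axis) for each of the 7 genes in lymphocytes, myeloid classes, airway secretory-like and alveolar type 2-like cells; bars are exact conditional binomial 95% intervals bars at the lower edge go on below 0.01, and a gene with no UMI in 1 library has no point. Scgb1a1 stood at 1.22 in airway secretory-like cells and at 0.162 in lymphocytes.

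The lists of related genes were counted in lymphocytes likewise. Of 22 airway secretory products 12 were compared there, 9 were at most 0.5 and 1, Slpi, was at least 2-fold higher (median log2 ratio -2.66). Scgb3a2 gave 6 and 282 UMIs and Bpifa1 0 and 102. Such genes reached the limit of 30 UMIs almost wholly through the WT-labelled library, so the count of lower genes in this list is no support for a direction. Of the 12 surfactant and lamellar body genes compared, 1 (Sftpa1) was at most 0.5 and none at least 2-fold higher, with a median log2 ratio of -0.02. Several of these, Napsa, Ctsh and Scd1 among them, are made by blood cells too, and Napsa gave 1729 and 4533 UMIs in lymphocytes. Neither of the 2 transcription factors compared passed a limit (median log2 ratio 0.11). Of 5 structural genes, 2 were at least 2-fold higher and 1 at most 0.5 (median log2 ratio 0.37), and Epcam was at 6.42 and 5.18 CPM. The 10 epithelial markers summed to 10.7 CPM (8.42 to 13.3; 78 UMIs) in the KO-labelled library and 10.3 CPM (9.10 to 11.5; 283 UMIs) in the WT-labelled library in lymphocytes, with Cldn3 and Elf3 at 0 in the former and Elf3 at 0 in the latter.

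Products of other cell types had each their own ratio outside their cells. In T-like cells S100a8, a calcium-binding protein of neutrophils, was at 15.1 and 28.2 CPM and Igkc, the light chain constant region of antibodies, at 22.5 and 26.4 CPM. S100a9, the partner of S100a8, was at 10.2 and 50.4 CPM there, 4.93-fold higher in the WT-labelled library, and Jchain, the joining chain of antibodies, gave 0 and 14 UMIs (1.35 CPM). In alveolar macrophage-like cells S100a8 was at 121 and 25.2 CPM and Igkc at 21.5 and 158 CPM. That class includes a cluster of 140 and 148 cells, 92.0% of them called doublets by the program Scrublet. The part of doublets in these values was not tested. Of the 6 genes in this list, which also held the globins Hba-a1 and Hbb-bs, 4 were at most 0.5 in lymphocytes and none at least 2-fold higher (median log2 ratio -2.16). The globins rested on few cells, since 7 lymphocytes in the WT-labelled library held 4530 of 4557 Hba-a1 UMIs and 10725 of 10822 Hbb-bs UMIs. In epithelial-like cells all 5 of these genes that were compared were at most 0.5, with 1 and 127 UMIs of S100a8, and 0 and 112 UMIs of Igkc. There the globin UMIs in the WT-labelled library, 2548 and 5062, lay almost wholly in 2 cells, and 233 of 252 S100a9 UMIs lay in 1 cell. The median of this list, -6.64 in epithelial-like cells and -6.40 in airway secretory-like cells, where again all 5 compared were at most 0.5, thus rests largely on single cells of the WT-labelled library.

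Sftpc stood apart from the airway genes in that its level outside the epithelium depended on the class. Among classes of at least 50 cells it was highest by CPM in endothelial-like cells in both libraries, at 30.5 CPM (15.8 to 53.3; 12 UMIs) in the KO-labelled library and 51.7 CPM (47.5 to 56.2; 556 UMIs) in the WT-labelled library. These levels were 14.0 times (6.04 to 31.5) and 15.8 times (12.7 to 20.03) those of lymphocytes of the same library. Per cell, dendritic-like cells stood higher in the KO-labelled library, at 20.9 times lymphocytes (9.43 to 45.6) against 13.2 times (5.70 to 29.7) for endothelial-like cells. Median totals of these classes were 9118 and 3391 UMIs there. Endothelial cells line the capillaries that share a basement membrane with the alveolar epithelium. A Sftpc UMI was present in 9.35% and 17.6% of endothelial-like cells, against 0.797% and 1.21% of lymphocytes. Median totals were 3391 and 4585.5 UMIs in endothelial-like cells against 3407 and 3547.5 in lymphocytes. With cells thinned to 1500 UMIs the shares were 8.33% and 6.01% of endothelial-like cells, and 0.220% and 0.511% of lymphocytes. The highest endothelial-like cells held 2 and 7 Sftpc UMIs. Mesenchymal-like cells had 83.9 CPM from 10 UMIs in 22 cells of the KO-labelled library, 5 of them in 1 cell, and 10.8 CPM in the WT-labelled library.

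After endothelial-like cells came dendritic-like cells in the KO-labelled library, 18.6 CPM from 14 UMIs, which were not below endothelial-like cells beyond counting error. In the WT-labelled library interstitial macrophage-like cells followed with 22.5 CPM and dendritic-like cells with 18.8 CPM, and the step from endothelial-like cells, 2.30-fold (1.84 to 2.90), exceeded counting error. Alveolar macrophage-like cells, which clear surfactant, had 4.24 and 9.79 CPM. Over all myeloid cells Sftpc was at 3.03 and 11.2 CPM, 3.69-fold higher in the WT-labelled library. Sftpb and Sftpa1 were also above their lymphocyte levels in endothelial-like cells in the WT-labelled library, by 13.1 times (6.34 to 30.5) and 5.67 times (3.71 to 8.84). For Wfdc2 the same ratio was 1.49 (1.04 to 2.12).

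Summed over marker lists, other epithelial transcripts were not raised to the same extent in endothelial-like cells, but these sums hold genes that other cells make. The 10 epithelial markers summed to 7.64 CPM (1.57 to 22.3; 3 UMIs) in the KO-labelled library, where 8 of them, Epcam, Cdh1, Krt8 and Krt18 included, were at 0. In the WT-labelled library all 10 were seen, at a sum of 14.9 CPM (12.7 to 17.4; 160 UMIs). In epithelial-like cells the same sum was 2419 and 2689 CPM. The 8 alveolar type 2 markers summed to 63.6 and 71.9 CPM in endothelial-like cells, of which Abca3, a lipid transporter that other cells express too, gave 20 of 25 and 641 of 773 UMIs. In lymphocytes that sum was 285 and 210 CPM, mostly Napsa. Slc34a2, the marker of that list most like Sftpc in pattern, was at 2.55 and 1.02 CPM in endothelial-like cells and at 0 and 0.181 CPM in lymphocytes. With so few UMIs, whether it was raised less than Sftpc cannot be told. The 8 airway secretory markers gave no UMI in endothelial-like cells in the KO-labelled library and 22.8 CPM in the WT-labelled library, the same as the 22.8 CPM of lymphocytes there. The part of whole or broken epithelial cells in the Sftpc UMIs of endothelial-like cells was not tested.

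The mixture of the 7 genes accordingly differed between classes of 1 library. As background, a single pool of free RNA would give its genes in 1 ratio in every class of a library. Scgb1a1 and Scgb3a1 together were 91.5% (87.5 to 94.6) of the member UMIs of lymphocytes in the KO-labelled library and 96.2% (95.7 to 96.7) in the WT-labelled library. In myeloid cells they were 84.4% and 89.9%, and in endothelial-like cells 55.3% (38.3 to 71.4) and 78.4% (77.0 to 79.8). Per 100 Scgb1a1 UMIs there were 6.81 (3.83 to 11.3) Sftpc UMIs in lymphocytes in the KO-labelled library and 1.65 (1.32 to 2.03) in the WT-labelled library. Alveolar macrophage-like cells had 14.7 and 7.87, and endothelial-like cells 57.1 and 21.5. Over all cells of a library there were 6.70 and 2.24. In both libraries the ratio of Sftpc to Scgb1a1 was thus higher in endothelial-like cells than over the whole library, and in lymphocytes of the WT-labelled library it was lower. Where the differing mixtures came from was not tested.

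**Figure D5:**
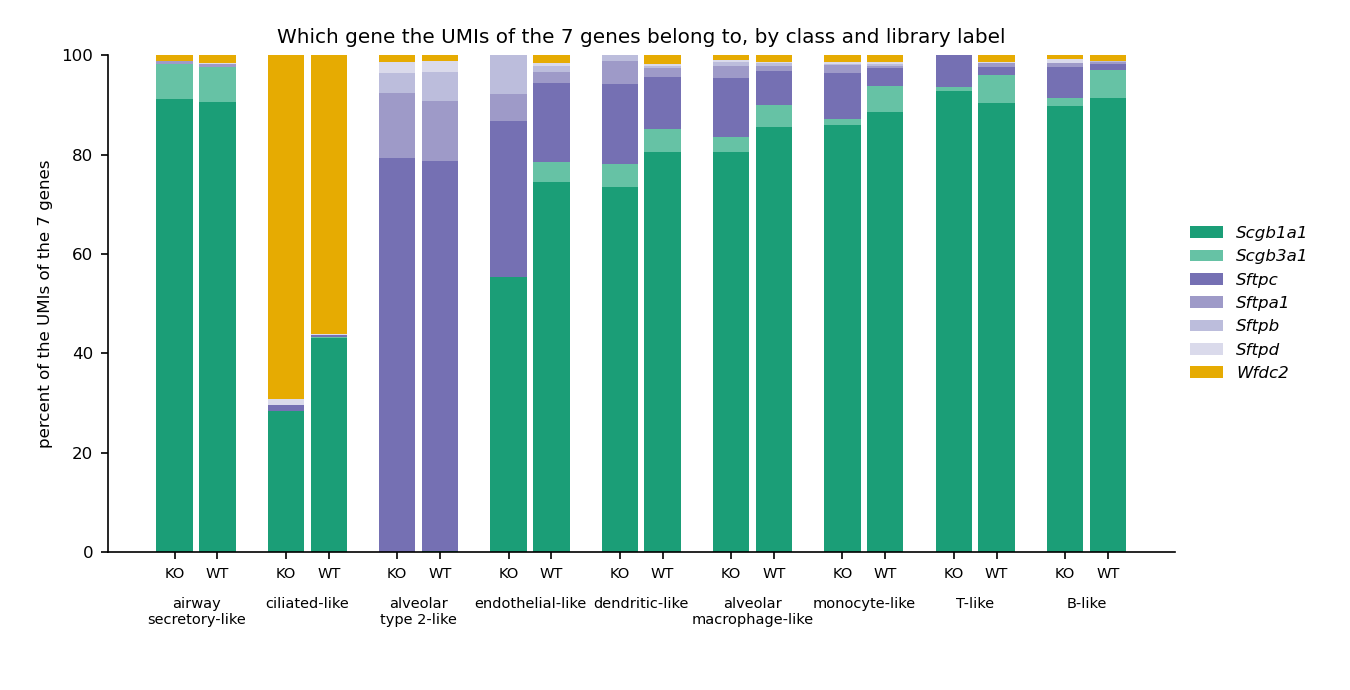
Share of each of the 7 genes among their summed UMIs, in percent, in 9 cell classes of the libraries labelled GFI1 KO and WT; each bar adds up to all member UMIs of the class. Scgb1a1 and Scgb3a1 took 93.7% and 96.0% in T-like cells but 55.3% and 78.4% in endothelial-like cells, where Sftpc took 31.6% and 16.0%.

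The ratio of Scgb3a1 to Scgb1a1 was lower in lymphocytes and myeloid cells than in airway secretory-like cells in both libraries. It was lower still in the KO-labelled library, where the lymphocyte value rests on 3 Scgb3a1 UMIs. There were 7.79 and 7.72 Scgb3a1 UMIs per 100 Scgb1a1 UMIs in airway secretory-like cells, but 1.28 (0.261 to 3.78) in lymphocytes and 2.95 (2.12 to 4.01) in myeloid cells in the KO-labelled library, against 6.14 (5.48 to 6.86) and 5.21 (4.74 to 5.70) in the WT-labelled library. Endothelial-like cells had 0 and 5.21. The airway secretory-like cells that carried Scgb3a1 numbered 7 and 38, and the 5 cells of 1 sub-cluster gave most of its UMIs in the KO-labelled library.

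Over 30 points, each 1 named class in 1 library, the genes with the pattern most like Sftpc were Slc34a2 (Pearson r 0.918 of log2(CPM + 1)), Il34 (0.900), S100g (0.893), Tmem132d (0.882) and Mme (0.882). Those most like Scgb1a1 were Reg3g (0.916), Lypd2 (0.912), Scgb3a2 (0.910), Vtcn1 (0.906) and Fut9 (0.893). Within the members Scgb1a1 was most like Scgb3a1 (0.932), and Sftpc was most like Sftpb (0.897) and Sftpa1 (0.891), while Scgb1a1 and Sftpc had 0.289. The points share 2 libraries and differ in depth, so these values are descriptions. Slc34a2, the sodium and phosphate transporter of alveolar type 2 cells, was at 6007 and 4313 CPM in alveolar type 2-like cells and at 2.55 and 1.02 CPM in endothelial-like cells, from 1 and 11 UMIs.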

How the data were processed

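The authors deposited raw UMI counts of 33696 genes and 18 antibody tags per called cell, made per the labels with Cell Ranger 9.0.1 and builds given as GRCm39 and mm39, without normalization. No removal of doublets or free RNA is named in the sources used here. The members and gene lists were chosen with earlier results of these data known. Columns of the matrices were mapped to a library by sample.

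The study's methods were followed with Python 3.11.15, scanpy 1.11.5, numpy 2.4.6, scipy 1.17.1, leidenalg 0.10.2, R 4.3.3 and matplotlib 3.10.9. Cells were kept with at least 500 UMIs, at least 200 genes and at most 20% mitochondrial UMIs. Ribosomal, mitochondrial and Gm genes (9548, with 19.0% and 16.5% of UMIs) were excluded, and CPM is per 1000000 of the remaining UMIs. Each cell was normalised to 10000 counts, followed by log1p and scaling (maximum value 10). The 2000 top variable genes (seurat_v3, loess span 0.3), without the 7 members, gave 50 components, 15 neighbours and Leiden clusters at resolution 0.8 over both libraries. A cluster took a name where 3 or more markers were raised by 1.5 times or more and present in 5% or more of its cells. Clusters with at least 60% of 10 epithelial markers raised were clustered again at resolution 1.5 and named from 8 markers per subtype. Resolution 1.5, the 60% limits, leaving erythroid markers out and leaving a cluster led by cell cycle genes unnamed were chosen after seeing the data. This left 2324 and 2446 cells unnamed. Doublets were kept. By Scrublet 346 (3.30%) and 1145 (5.92%) of the kept cells were doublets in the KO- and WT-labelled libraries.

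Named genes were the members, for each list the 2 highest and the 2 lowest ratios in epithelial-like cells (ranked by the interval bound nearer to 1, with genes whose interval included 1 tied; at least 30 UMIs), and the 5 genes most like Sftpc and Scgb1a1 by r among genes with at least 100 UMIs. Others were named after their values were seen: genes leading a cluster, Scgb3a2, Bpifa1, Slpi, Napsa, Epcam, Abca3 and the products of other cells in T-like and alveolar macrophage-like cells. List medians used 0.5 added UMIs.

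Levels have exact Poisson intervals, ratios conditional binomial ones and shares exact Clopper-Pearson ones, all at 95%. Differences of shares have square-and-add intervals. A count of 0 allows 3 UMIs. UMIs come from the 3′ end and were not divided by length, so shares among the 7 genes are shares of UMIs. Scripts were tested on simulated counts.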

Additional observations from a re-analysis of the deposited data

Results flagged for a closer look

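For 3 members the ratio of the library labelled GFI1 KO to that labelled WT ran above 1 in epithelial-like cells and below 1 in lymphocytes, with both intervals clear of 1. The log2 ratio in lymphocytes minus that in epithelial-like cells was -2.72 for Scgb1a1, -5.00 for Scgb3a1 and -3.87 for Sftpa1. Each side is 1 library per label, so these differences were not tested. For Scgb3a1 the lymphocyte level in the KO-labelled library rests on 3 UMIs and for Sftpa1 on 1 UMI.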

How the results depend on the processing

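No paired analysis was possible because each label has 1 library and its number is shared only as a name. All values are GFI1 KO against WT. Classes made from defining markers without clusters gave an epithelial share difference of -0.0563 points (-0.145 to 0.0442; reported -0.290), a log2 ratio of the 7 genes of -3.13 in lymphocytes (reported -2.62) and -0.70 in epithelial-like cells (reported 0.15), and an airway share difference of -12.6 points in lymphocytes (reported -4.67). The lymphocyte ratio was -2.94 without the 1% of lymphocytes of most member UMIs and -3.05 at resolution 0.5, where 1 WT cell of 1735 member UMIs joined the class. Without that cell, left out after seeing the data, it was -2.71. The epithelial-like ratio was 0.10 with no cell filter, 0.14 without Scrublet doublets, 0.13 at resolution 0.5, 0.029 with the members among the variable genes, 0.13 with all genes in the totals, -0.36 as UMIs per cell, 0.27 in airway secretory-like cells only and 0.82 in alveolar type 2-like cells only, the last pair added after seeing the data.

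Member by member, 60 of 64 alternatives in lymphocytes stayed within counting error and none changed direction. Members with few UMIs have wide intervals, such as -8.48 to -0.55 for Sftpa1 and -5.97 to 2.75 for Sftpd. Staying within these says little about how firm a value is. Scgb1a1, with the most UMIs, moved beyond counting error in 3 of 11 alternatives. Wfdc2 from defining markers was -0.053 (-2.14 to 1.67), which includes 0, against -2.59 reported. In epithelial-like cells 36 of 76 stayed within it and 12 changed direction. With the members among the variable genes Scgb1a1 became -0.032 and Scgb3a1 -0.026. From defining markers they became -0.84 and -1.04, and per cell -0.42 and -0.41, with Sftpd at -0.0092. In airway secretory-like cells only, Sftpa1 was -0.19, Sftpb -0.67 and Sftpd -0.61. In alveolar type 2-like cells only, Scgb1a1 was -4.05 and Wfdc2 0.91. The difference in lymphocytes with a Scgb1a1 UMI was -14.9 points thinned to 1000 UMIs, -31.0 at 3000 and -36.9 unthinned. Sftpc in endothelial-like over lymphocytes ran from 3.76 to 4.73 (log2) in the KO-labelled library and from 3.91 to 4.05 in the WT-labelled library over alternatives added after seeing the data. With each library clustered on its own, no KO-labelled cell was named endothelial-like against 2111 WT-labelled cells. The KO-labelled ratio could not be formed in that setting. Causes of these changes were not tested. Depth limits the members with few UMIs in lymphocytes, where Sftpb and Sftpd could not be compared, and the 5 and 10 alveolar type 2-like cells limit every value from them.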

Other observations

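Barcodes that the filters left out also held member RNA. The 205 such barcodes in the KO-labelled library had 2.84 Scgb1a1 UMIs each on average and the 173 in the WT-labelled library had 24.97. The UMIs were concentrated, since 177 and 69 of the barcodes had none, and 2 and 7 barcodes of at least 100 Scgb1a1 UMIs held 370 of 583 and 3469 of 4320.

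Outside the epithelial-like class, 2 cells of each library held at least 100 member UMIs. In the KO-labelled library they held 39.97% of all member UMIs outside the class. One was an unnamed cell with 1196 member UMIs, 914 of Sftpc and none of Scgb1a1, and the other an unnamed cell, called a doublet by Scrublet, with 476, of which 423 were Scgb1a1. In the WT-labelled library 2 cells held 11.4%. An unnamed cell had 2912, of which 2002 were Sftpc and 1 Scgb1a1, and an endothelial-like cell had 266, of which 262 were Scgb1a1.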
